A study of Mus musculus with 36 samples.

Results

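Cd274 encodes PD-L1, the surface protein by which a cell restrains T cells that carry the receptor PD-1. The transcription of Cd274 was followed in mouse NIH-3T3 fibroblasts given either of a pair of interferons. Every probe set annotated to the symbol Cd274 alone was taken, which gave 1 probe set of the 45101 on the array, so that Cd274 was 1 of 18193 genes named by a single symbol. No probe set shared Cd274 with another gene. Cd274 rose 33-fold with IFN alpha and 17.4-fold with IFN gamma over mock in the 30-60 min window. At 150-180 min the IFN alpha arrays had a level overlapping that of 30-60 min, while the IFN gamma arrays were higher again, 245-fold above mock.

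The data are 36 Affymetrix arrays, 3 for each of 12 groups, of RNA that cells made while 4-thiouridine (4sU) was present. 4sU is a nucleoside that cells build into new transcripts, so that the labelled RNA can be separated from older RNA. NIH-3T3 is an established line of mouse embryo fibroblasts. The groups crossed a medium change with mock, with IFN alpha at 100 U/ml or with IFN gamma at 100 U/ml against 4 labelling windows. The 0-30, 30-60 and 150-180 min windows used 4sU at 500 µM, and the 0-60 min window used 200 µM. All groups, mock included, received 4sU. Arrays are numbered 1 to 3 within a group, but nothing says that they are separate cultures, so p-values measure only the spread between these arrays, which may be technical. Values are GCRMA log2 intensities, and array numbers limit their precision.

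Defining markers matched the labelled cell type: all 11 fibroblast markers on the array passed a log2 value of 4 in at least 3 arrays, the filter used throughout, with a median level of 11.8 and Vim highest at 13.15. Of 12 macrophage and dendritic cell markers 1 passed (Cd14, at 6.17), and the median was 2.75. None of 8 T, NK and B cell markers passed (median 2.47), nor did any of 8 epithelial (2.54) or 8 endothelial markers (2.39). The log2 of the summed macrophage and dendritic markers at 30-60 min ran from 6.64 to 6.76 in mock, from 6.81 to 6.90 with IFN alpha and from 6.65 to 6.92 with IFN gamma, so that every IFN alpha array lay above every mock array. At 150-180 min this sum ran from 7.21 to 7.31 in mock, from 6.91 to 7.10 with IFN alpha and from 6.77 to 6.89 with IFN gamma, where the interferon arrays lay below the mock arrays. Cd14, the only marker in this sum over the filter, differed from mock by 0.32 with IFN alpha and 0.18 with IFN gamma at 30-60 min. At 150-180 min it differed by -0.48 and -0.88, and only the last was called. The sum is therefore no measure of macrophages or dendritic cells as such. The part of this sum in the Cd274 values was not tested. In these bulk samples, fewer cells that transcribe a gene and less new RNA per cell cannot be told apart. Some arrays stood apart by signs of RNA quality. Mock 0-60 min array 1 correlated with its group mates at 0.91, and its Gapdh probe sets near the 3' end were 2.67 above those near the 5' end on the log2 scale, against -0.32 and -0.30 on the others. Its Cd274 level (2.73) lay between theirs. The same Gapdh difference was 0.59, 0.73 and 0.56 on array 2 of mock, IFN alpha and IFN gamma at 30-60 min, against -0.57 to -0.01 on the other 6 arrays of that window. It was 0.51 on IFN gamma 150-180 min array 3, which had the highest Cd274 level, against -0.49 and -0.27 on its group mates. The part of RNA quality in the Cd274 values was not tested; each of these arrays was left out in turn.

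Interferons are secreted proteins that warn cells of infection. IFN alpha acts through the receptor chains Ifnar1 and Ifnar2 and the kinases Tyk2 and Jak1, chiefly to form ISGF3, a complex that includes Stat2 and Irf9 and binds the interferon-stimulated response element (ISRE). IFN gamma acts through Ifngr1 and Ifngr2 and the kinases Jak1 and Jak2, and its direct targets carry the gamma-activated site (GAS). Irf1 is itself such a direct target, and the Irf1 protein is known to bind and activate the promoter of PD-L1, so that Cd274 is described as a gene induced partly through a newly made factor.

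The promoter of Cd274 is shown beside that of Irf1, the factor described above, and that of Gbp2, the gene whose pattern lay closest to Cd274 below. Whether Irf1 acted on Cd274 in these cells was not tested. Each run is the 250 bases before the RefSeq transcription start in GRCm38.p6, all on the plus strand: Cd274 at chr19:29367188-29367437, Irf1 at chr11:53769764-53770013 (the one of 2 listed promoters with a match) and Gbp2 at chr3:142620413-142620662. Capitals mark matches on either strand to an ISRE core (GAAA repeated after any 2 bases), to a GAS (TTC and GAA with any 3 or any 4 bases between them) or to the short IRF-type sequence GAAAC.
Cd274: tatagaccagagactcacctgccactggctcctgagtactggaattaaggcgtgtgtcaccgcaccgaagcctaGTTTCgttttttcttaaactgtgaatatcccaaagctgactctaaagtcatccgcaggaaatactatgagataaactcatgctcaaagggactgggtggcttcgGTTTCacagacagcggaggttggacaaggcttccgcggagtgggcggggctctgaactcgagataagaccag
Irf1: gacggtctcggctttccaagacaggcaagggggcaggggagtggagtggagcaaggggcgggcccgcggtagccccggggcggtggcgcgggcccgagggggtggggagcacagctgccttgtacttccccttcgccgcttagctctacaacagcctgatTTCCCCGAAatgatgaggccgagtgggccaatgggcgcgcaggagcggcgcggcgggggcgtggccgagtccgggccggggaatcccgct
Gbp2: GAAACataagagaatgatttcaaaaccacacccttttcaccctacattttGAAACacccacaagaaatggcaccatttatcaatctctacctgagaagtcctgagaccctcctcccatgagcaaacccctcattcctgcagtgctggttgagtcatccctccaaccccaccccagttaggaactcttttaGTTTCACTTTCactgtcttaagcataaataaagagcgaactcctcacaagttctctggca

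Within its 250 bases Cd274 held 2 matches to GAAAC, both on the minus strand (GTTTC as printed), at positions -176 and -72 from the start. It also held a GC box (GGGCGG) at -31, not capitalised above. The ISRE core, both GAS forms and the TATA box (TATAAA) had no match in this window. The Irf1 promoter held a GAS match (TTCCCCGAA) at -90. Gbp2 held an ISRE core match at -59, which overlapped 1 of its 3 GAAAC matches. Over all 32851 mouse promoter windows of this length, 39.7% held GAAAC, 2.98% the ISRE core, 7.02% the 3-base and 5.85% the 4-base GAS, 32.7% the GC box and 12.4% TATAAA. A match is a string of letters and not a measured binding site.

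In the first 30 min Cd274 lay under the filter in every group. The 3 mock arrays read 2.83, 2.83 and 2.84 (mean 2.83 ± 0.003, SD, n = 3). IFN alpha arrays 1 to 3 read 3.88, 2.87 and 3.27 (3.34 ± 0.51), and IFN gamma arrays 3.81, 3.29 and 3.14 (3.41 ± 0.35). All 6 interferon arrays lay above the mock arrays; the lowest of them, IFN alpha array 2, did so narrowly. The differences were 0.51 ± 0.39 (SE; 95% interval -0.29 to 1.31) with IFN alpha and 0.58 ± 0.39 (-0.22 to 1.38) with IFN gamma, and neither passed limma's test (adjusted p = 1 for both, where 0.377% and 0.754% of all 9549 genes tested were called higher). Calls throughout rest on p-values adjusted by the Benjamini-Hochberg method over these 9549 genes, with a threshold of 0.05.

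Between 30 and 60 min Cd274 rose with both interferons. Mock arrays read 2.67, 2.18 and 2.66 (2.51 ± 0.28), IFN alpha arrays 7.46, 7.29 and 7.91 (7.55 ± 0.32) and IFN gamma arrays 6.62, 6.78 and 6.46 (6.62 ± 0.16). The 3 groups did not overlap. The rise was 33-fold with IFN alpha (log2 5.04 ± 0.39, adjusted p = 1.62e-11 in limma; 2.4% of genes were called higher) and 17.4-fold with IFN gamma (4.12 ± 0.39, adjusted p = 1.72e-09; 3.82% called higher). With same-numbered arrays as a block within windows both calls held, and the genes called in either direction rose from 247 to 508 with IFN alpha and from 562 to 1161 with IFN gamma. By size the Cd274 rises were ranks 21 and 17 from the highest among the 9549 genes. Since mock lay under the filter, folds against it are over background: with every value under 4 set to 4, an alternative chosen after seeing the data, the rises were 3.55 and 2.62. For the same reason Cd274 passed the filter through its interferon arrays alone, and had to differ from mock somewhere. Without array 2, which stood apart in this window, the IFN alpha rise was 4.88 (mock array left out) or 5.18 (IFN alpha array left out), and the IFN gamma rise 3.95 (mock array) or 4.04 (IFN gamma array), all called.

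At 150-180 min the treatments parted. Mock arrays read 2.64, 2.61 and 2.73 (2.66 ± 0.06), IFN alpha arrays 7.36, 7.79 and 7.76 (7.64 ± 0.24) and IFN gamma arrays 10.20, 10.55 and 11.03 (10.60 ± 0.42). Every IFN gamma array lay above every IFN alpha array, as for 10.9% of all genes, and both sets above mock. With IFN alpha Cd274 was 31.5-fold above mock (4.98 ± 0.39, adjusted p = 1.29e-11 in limma; 2.58% called higher), rank 33 of all genes. With IFN gamma it was 245-fold above mock (7.94 ± 0.39, adjusted p = 8.38e-17; 4.37% called higher), rank 7. With values under 4 set to 4 these became 3.64 and 6.60. Without IFN gamma array 3, which stood apart, the IFN gamma rise was 7.72 (adjusted p = 9.73e-15).

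Labelling over the whole first hour, at the lower 4sU concentration, gave intermediate and more scattered values. Mock arrays read 2.73, 2.86 and 2.65 (2.75 ± 0.11), IFN alpha arrays 5.51, 7.53 and 4.60 (5.88 ± 1.5) and IFN gamma arrays 4.88, 5.65 and 4.82 (5.12 ± 0.46). All interferon arrays lay above all mock arrays, and the interferons overlapped. Cd274 was 8.78-fold above mock with IFN alpha (3.13 ± 0.39, adjusted p = 9.97e-07 in limma; 1.91% called higher) and 5.17-fold with IFN gamma (2.37 ± 0.39, adjusted p = 8.48e-05; 3.83% called higher). The model gives each gene a single spread for the 12 groups together. Fitted on the 0-60 min arrays alone, both lost the call (adjusted p = 0.0543 and 0.129), and with values under 4 set to 4 the IFN gamma rise was 1.12 (adjusted p = 0.0657). Without mock array 1, which stood apart, the rises were 3.12 and 2.36 (adjusted p = 9.97e-06 and 0.000446). The size of the IFN alpha rise rested on single arrays: it was 2.31 without IFN alpha array 2 and 3.77 without array 3 (adjusted p = 1.73e-06 and 5.55e-09).

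IFN alpha 0-60 min array 2 lay 1.65 above its group mean for Cd274 and array 3 deviated by -1.28. Over the 228 other genes called higher with IFN alpha at 30-60 min, the median deviations on these arrays were 0.30 and -0.28. IFN gamma 0-60 min array 2 lay 0.53 above its mean, where those genes had a median deviation of 0.14. As a side-by-side value, the log2 of the linear mean of the 0-30 and 30-60 min levels was 6.63 for IFN alpha and 5.77 for IFN gamma, against measured 0-60 min means of 5.88 and 5.12. For mock the values were 2.68 and 2.75. The windows differ in 4sU concentration.

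**Figure D1:**
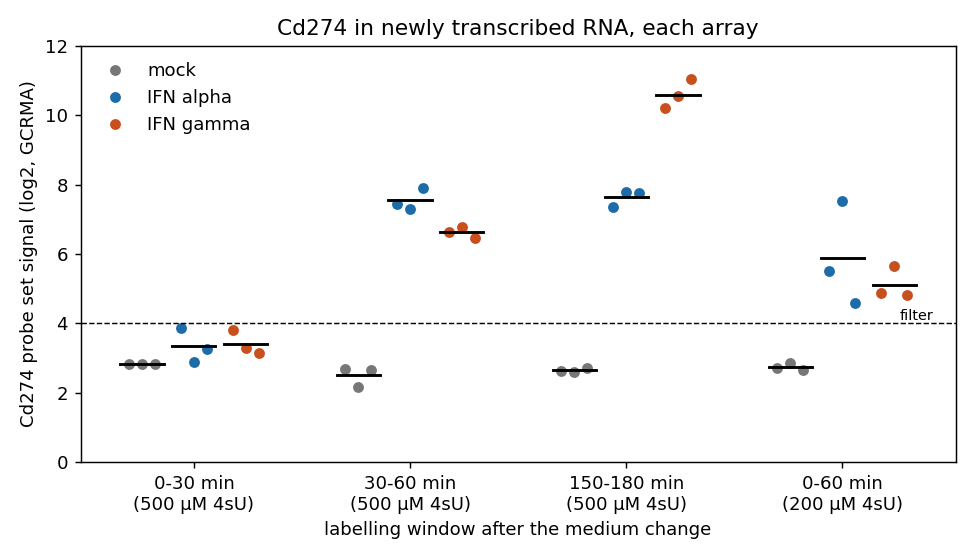
Cd274 log2 level on each of the 36 arrays (points) with the group mean (line), by treatment and labelling window; the dashed line is the filter at log2 4. Mock stays under the filter in every window, IFN alpha has like levels at 30-60 and 150-180 min (means 7.55 and 7.64), and IFN gamma reaches 10.60 at 150-180 min.

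Ordered by mean, the 12 groups formed steps. The 4 mock groups lay lowest, from 2.51 to 2.83, each overlapping its neighbour. The 0-30 min groups of IFN alpha and IFN gamma came next, above all mock arrays, and overlapped each other. IFN gamma 0-60 min followed, 1.71 higher and without overlap, then IFN alpha 0-60 min and IFN gamma 30-60 min, each overlapping the group before it. IFN alpha 30-60 min lay 0.93 above IFN gamma 30-60 min without overlap, and IFN alpha 150-180 min overlapped IFN alpha 30-60 min. The scattered IFN alpha 0-60 min group, though lower by mean, reached 7.53 and so overlapped both of these IFN alpha groups. IFN gamma 150-180 min stood 2.96 above the next group. Mock itself did not pass limma's test between windows: the differences were -0.33 for 30-60 minus 0-30 min (adjusted p = 0.484), 0.15 for 150-180 minus 30-60 min (0.746) and -0.08 for 0-60 minus 0-30 min (0.887), each ± 0.39. Of all genes, 60.9%, 64.1% and 35.4% were called in these comparisons of mock windows.

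The change of each response between windows was tested as a difference of differences, each window against its own mock. The IFN alpha response grew by 4.53 ± 0.56 from 0-30 to 30-60 min (adjusted p = 1.66e-06 in limma; 1.27% of genes called higher), rank 5 of 9549. It then differed by -0.07 ± 0.56 between 30-60 and 150-180 min, with a 95% interval from -1.20 to 1.07 and an adjusted p of 1 (0.429% called higher, 0.0419% lower). The IFN gamma response grew by 3.54 ± 0.56 over the first step (adjusted p = 0.000139; 1.27% called higher), rank 6, and by 3.82 ± 0.56 over the second (adjusted p = 2.73e-05; 1.2% called higher), rank 8. Cd274 thus passed at 1 step with IFN alpha and at both with IFN gamma.

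Set directly against each other, the interferons differed by limma's test at 150-180 min only. At 0-30 min IFN gamma minus IFN alpha was 0.07 ± 0.39 (adjusted p = 1 in limma; 0.524% called higher). At 30-60 min it was -0.93 ± 0.39 with an interval from -1.73 to -0.12; every IFN alpha array lay above every IFN gamma array, as for 8.94% of all genes, and the adjusted p was 0.255 (2.97% of genes called lower, 2.72% higher). Fitted on the 30-60 min arrays alone, where the SDs were 0.32 and 0.16 against 1.5 for IFN alpha at 0-60 min, the same difference passed (adjusted p = 0.0444). With array weights it was -1.33 (adjusted p = 0.000398 in limma). The estimation of these weights did not converge, and with them 2085 genes were called in this comparison, against 544 in the main fit. At 150-180 min IFN gamma was 7.78-fold above IFN alpha (2.96 ± 0.39, adjusted p = 1.6e-06; 2.8% called higher), rank 13. Over 0-60 min the difference was -0.76 ± 0.39 (adjusted p = 0.456; 2.36% called lower); without IFN alpha array 2 it was 0.06 and without array 3 it was -1.40 (adjusted p = 0.0195).

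The step of the IFN gamma minus IFN alpha difference from 30-60 to 150-180 min was 3.89 ± 0.56 for Cd274 (adjusted p = 3.15e-05 in limma; 0.712% called higher). This was rank 1 of all 9549 genes, of which 1% lay under -0.80 and 1% over 1.06, around a median of 0.02. From 0-30 to 30-60 min the same difference moved by -0.996 ± 0.56 (adjusted p = 1, with 0.702% of genes called lower). With array weights, whose estimation did not converge, it moved by -1.54 (adjusted p = 0.00931 in limma). The genes at ranks 2 to 5 of the later step, named after their values were seen, differed in kind. Ifit1 (3.81) stayed lower with IFN gamma, at -7.02 and then -3.21, whereas Zbtb7c (3.34), Batf2 (2.75) and Gbp8 (2.62) had IFN alpha responses between -0.11 and 0.08 in both windows. For Batf2, the mock and IFN alpha means of these windows, from 2.34 to 2.39, lay under the filter, which limits what its IFN alpha values can show. Cd274 was called higher than mock with both interferons in both windows. Other genes shared its shift. Tmem140 at rank 6 (2.39) likewise crossed from -0.64 to 1.74. Gbp2 (2.27, rank 12, adjusted p = 0.0107 in limma) and Gbp6 (2.21, rank 14, adjusted p = 0.00446), both near Cd274 in pattern below, also moved towards IFN gamma. Both differed from mock by at least 4.17 with either interferon in both windows.

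**Figure D2:**
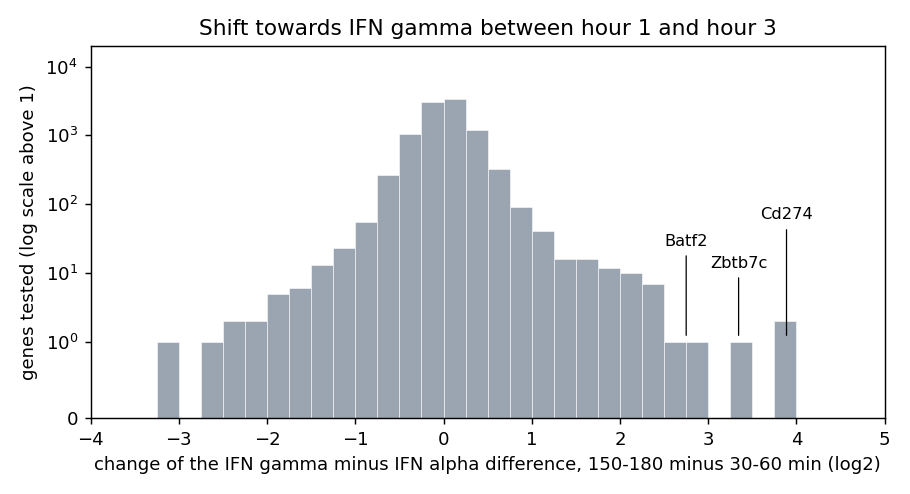
Change of the IFN gamma minus IFN alpha difference from 30-60 to 150-180 min (log2, horizontal axis) over the 9549 genes tested (number of genes, log axis), with named genes marked. Nearly all genes lie near 0 (median 0.02), and Cd274 lies furthest right at 3.89.

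In all, 140 genes were called higher than mock both with IFN alpha at 30-60 min and with IFN gamma at 150-180 min. Of these, 7 had every IFN alpha array above every IFN gamma array in the first window and the reverse in the second. This order was held by 0.377% of all genes tested. The calls that chose the 140 genes used the same arrays as the order, so the share over all genes is not a like baseline. The 7 were Cd274, Tmem140, Gbp3, the immunoproteasome and proteasome activator genes Psmb10 and Psme1, the nonclassical class I gene H2-M3 and Il13ra1. Cd274 had the largest late lead of IFN gamma among them (2.96, next Tmem140 at 1.74), while its early lead of IFN alpha (0.93) was under those of H2-M3 (1.70) and Psmb10 (1.46). These names too were chosen after their values were seen.

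Among receptors and kinases, 7 genes were tested and only Ifnar2, a chain of the IFN alpha receptor, passed against mock. It was higher with IFN gamma by 1.34 ± 0.20 at 30-60 min (adjusted p = 8.29e-06 in limma), by 1.22 at 150-180 min and by 1.08 over 0-60 min. Its differences with IFN alpha, from 0.06 to 0.60, did not pass. Of all genes, 3.82%, 4.37% and 3.83% were called higher with IFN gamma at 30-60, 150-180 and 0-60 min. Ifnar1 differed from mock by between -0.35 and 0.21 in the 8 comparisons, the IFN gamma receptor chain Ifngr1 by between -0.27 and 0.10, and Ifngr2, with an SE of 0.49, by between -1.30 and 0.29. Jak2, which lies near Cd274, differed by between 0.01 and 0.40, at most with IFN gamma at 150-180 min (adjusted p = 0.226). The median of these 7 genes at that time was 0.003, against -0.10 over all genes.

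Of 11 STAT and IRF family genes tested, 6 were called higher with IFN alpha and 7 with IFN gamma at 150-180 min, where 2.58% and 4.37% of all genes were called higher, with medians of 0.96 and 1.36 against -0.10 over all genes in both. Irf1 was higher with IFN gamma in all windows, by 5.14, 5.86 and 5.08 ± 0.19 at 0-30, 30-60 and 150-180 min. With IFN alpha it was higher by 2.15, then 4.08, then 1.17. This drop of the Irf1 response to IFN alpha, -2.91 ± 0.27 from 30-60 to 150-180 min (adjusted p = 3e-09 in limma), was the lowest of all 9549 genes, whereas the Cd274 response in the same arrays changed by -0.07. With IFN gamma the Irf1 response changed by -0.78 ± 0.27 (adjusted p = 0.197) while that of Cd274 grew by 3.82. Irf1 was called at 0-30 min with both interferons, when Cd274 was not (the difference between both genes was not tested).

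**Figure D3:**
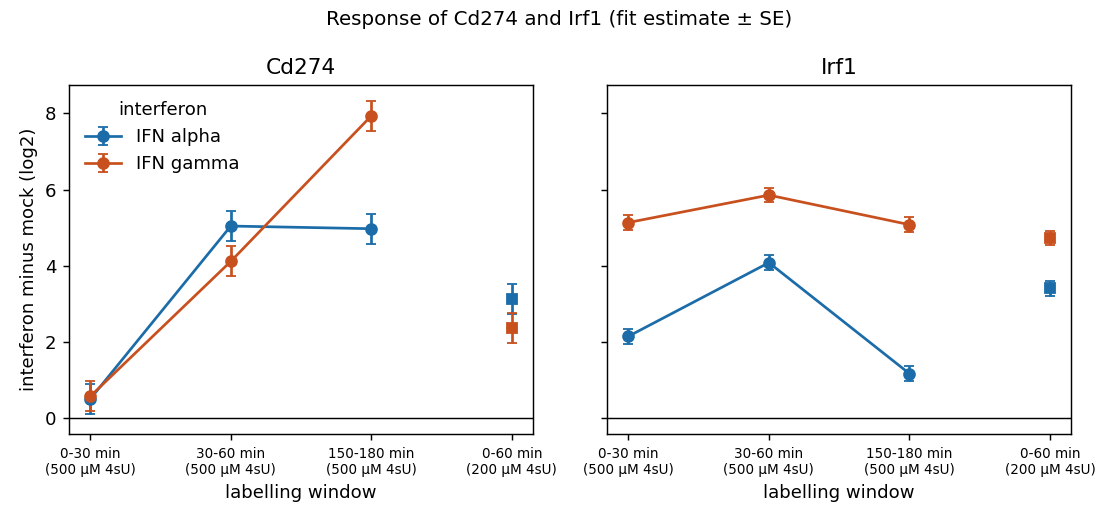
Interferon minus mock difference (log2, vertical axis) of Cd274 and of Irf1 at 0-30, 30-60 and 150-180 min, with standard errors from the fit (n = 3 arrays per group). Irf1 is high with IFN gamma from the first window and falls late with IFN alpha, while Cd274 is first called at 30-60 min, has like values with IFN alpha in the later windows (5.04 and 4.98) and is higher with IFN gamma at 150-180 min (7.94).

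The ISGF3 members Stat2 and Irf9 rose with both interferons. Irf9 was higher in all 8 comparisons, by 2.81 with IFN alpha and 2.78 with IFN gamma at 0-30 min and by 4.22 and 3.89 ± 0.17 at 150-180 min. Stat2, like Cd274, did not pass at 0-30 min (1.09 and 1.06 ± 0.42, adjusted p = 1 in limma) and was higher at 30-60 min (3.93 and 3.04) and 150-180 min (4.02 and 3.48). Irf7, which drives further type I interferon genes, was higher by 4.09 with IFN alpha and by 1.36 with IFN gamma at 150-180 min, a difference that passed (-2.73, adjusted p = 1.12e-08 in limma; 1.9% of genes called lower). For Irf9 and Stat2, IFN gamma minus IFN alpha did not pass in any window, at 150-180 min -0.33 and -0.54 where Cd274 had 2.96.

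Of 13 inhibitors of interferon signalling tested, 3 were called higher with IFN alpha and 5 with IFN gamma at 150-180 min (2.58% and 4.37% of all genes), with medians of -0.11 and 0.55 against -0.10 over all genes in both. Socs1, which blocks the Janus kinases, was higher with IFN gamma by 2.81 ± 0.34 at 0-30 min and by 4.40 at 150-180 min, and with IFN alpha by 1.26 to 1.37 in the later 30 min windows. Socs3 and Cish were higher with IFN gamma at 150-180 min (2.56 and 2.13), while their IFN alpha values of -0.02 and -0.75 did not pass; at 30-60 min Socs3 was higher with both (1.97 with IFN alpha and 3.45 with IFN gamma). Usp18, which damps the IFN alpha receptor, went the other way: it was higher by 6.70 ± 0.50 at 30-60 min and by 7.85 at 150-180 min with IFN alpha, and with IFN gamma by 3.56 at 150-180 min after 0.26 (adjusted p = 0.926) at 30-60 min.

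The partner ligand of PD-1, Pdcd1lg2 (PD-L2), is the next gene beside Cd274 and stayed at background: it read between 2.21 and 2.31 on all 36 arrays and was not tested. The receptor itself, Pdcd1, reached at most 2.88. Of 28 other ligands of T-cell checkpoint and costimulatory receptors on the array, 9 passed the filter and 3 of these were called against mock in some window. At 30-60 min 2 were called higher with IFN alpha and 1 with IFN gamma (2.4% and 3.82% of all genes). At 150-180 min these counts were 2 and 0 (2.58% and 4.37% of all genes). Lgals9, a ligand of the checkpoint receptor Tim-3, was higher with IFN alpha from 30-60 min (2.88 ± 0.28; 2.85 at 150-180 min), and its IFN gamma values of 0.79 and 0.69 did not pass. Icam1, the adhesion ligand of LFA-1, was higher with IFN gamma at 30-60 min (2.49 ± 0.16) and not at 150-180 min (0.03, adjusted p = 0.964 in limma). At 150-180 min its means in mock (2.37) and with IFN gamma (2.40) lay under the filter. Cd47, the signal against phagocytosis, was higher with IFN alpha at 30-60 min (0.62 ± 0.17) and 150-180 min (1.00). The other 6, among them Cd276 (B7-H3) and Pvr, did not pass. None of the 9 tested was called with both interferons at 30-60 and at 150-180 min, as Cd274 was; the other ligands and PD-L2 were under the filter and not tested.

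MHC class I presentation, which shows the peptides that T cells read, was represented by 17 genes on the array: 13 of 16 tested genes were called higher at 150-180 min with either interferon (2.58% of all genes with IFN alpha and 4.37% with IFN gamma), with medians of 1.62 for IFN alpha and 2.28 for IFN gamma against -0.10 over all genes. The peptide transporter gene Tap1 was called at 0-30 min, with 2.50 and 3.70 ± 0.28, and reached 4.49 and 6.05 at 150-180 min. The immunoproteasome gene Psmb9 was likewise called at 0-30 min and reached 3.02 with IFN alpha and 5.58 with IFN gamma. Nlrc5, the transactivator of class I genes, was called later: it lay within 0.02 of mock up to 60 min and then was 2.91 and 5.29 ± 0.13 higher. Up to 60 min all its group means, from 2.34 to 2.39, lay under the filter, so small responses there could be missed. At 150-180 min IFN gamma minus IFN alpha was 2.38 for Nlrc5 and 2.56 for Psmb9, beside 2.96 for Cd274.

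Of 6 tested genes of T-cell chemokines and immune regulatory enzymes and cytokines, Cxcl9 and Cxcl10, which draw in T cells through Cxcr3, were called at 0-30 min, when Cd274 was not: Cxcl10 with both interferons and Cxcl9 with IFN gamma. In that window Cd274 lay under the filter, and the difference between these genes and Cd274 was not tested. Cxcl10 was higher by 4.45 with IFN alpha and 3.17 ± 0.47 with IFN gamma at 0-30 min, and by 7.45 and 6.89 at 150-180 min. Cxcl9 was higher with IFN gamma (3.37 ± 0.48, 7.51 and 7.15 over the 3 windows), and with IFN alpha by 2.13 at 30-60 min, where its values at 0-30 and 150-180 min (0.03 and 0.84) did not pass. Il6 was called with both at 30-60 min (1.71 and 1.35), and Il15 at 150-180 min (1.94 and 0.95). With either interferon, 4 of the 6 were called higher at 30-60 min (2.4% of all genes with IFN alpha and 3.82% with IFN gamma) and 3 at 150-180 min (2.58% and 4.37%). Tgfb1, an immunosuppressive cytokine, was called lower with IFN gamma at 30-60 min (-1.34 ± 0.39, adjusted p = 0.0327 in limma; 2.06% of all genes called lower).

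Of 18 tested genes that act on PD-L1 protein or mRNA, 1 was called higher and 1 lower with IFN gamma at 30-60 min and likewise at 150-180 min, with medians of -0.14 and -0.08. Of all genes 3.82% and 4.37% were called higher and 2.06% and 1.54% lower, so that these counts lay near the background. Zfp36 (tristetraprolin), which speeds the decay of AU-rich mRNAs, was higher with IFN gamma in all windows, by 1.27, 1.32 and 1.28 ± 0.24 at 0-30, 30-60 and 150-180 min. The sheddase gene Adam17 was lower at 30-60 min (-0.55 ± 0.15, adjusted p = 0.0245 in limma) and Cops5, whose product removes ubiquitin from PD-L1, at 150-180 min (-0.53 ± 0.16). Cmtm6, which keeps PD-L1 at the surface, differed from mock by between -0.14 and 0.78 and did not pass. Other transcription factors reported at the PD-L1 promoter, 10 tested, included Bcl6, which was lower with IFN gamma at 30-60 min (-0.59) and over 0-60 min (-1.12; 2.9% of all genes called lower there). Myc was lower in the same comparisons (-0.66 and -0.69 ± 0.20; with array weights the latter was -0.59 and did not pass). Jun was higher with IFN gamma at 150-180 min (0.70) and Hif1a over 0-60 min (1.24).

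The pattern of Cd274 over the 12 group means was compared with that of the 9548 other genes by Pearson's r, as a description over 12 points that share treatments and windows. The median r was -0.10, and 10 genes exceeded 0.9: Gbp2 and Gbp7 (0.97 each), Gbp6, Ifi47 and Gbp3 (0.96 each), Tap2 and Parp14 (0.93), Parp9 and Rnf114 (0.92) and Trim12c (0.90). By root mean square distance over the 8 interferon minus mock differences, the nearest were Gbp2 (0.87), Gbp3 (0.88), Gbp7 (0.96), Parp14 (1.17), Gbp6 (1.26), Ifi47 (1.3), Dtx3l (1.42), Parp9 (1.43), Xaf1 (1.54) and Trim21 (1.56). Both lists share 7 genes. Gbp genes encode guanylate-binding GTPases of cell-autonomous defence.

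Gbp2 had differences of 0.92 and 1.15 at 0-30 min, 5.09 and 5.44 at 30-60 min, and 5.72 and 8.34 at 150-180 min for IFN alpha and IFN gamma. Cd274 had 0.51 and 0.58, 5.04 and 4.12, and 4.98 and 7.94 in the same comparisons. Gbp3, the second nearest, started higher (1.87 and 1.43), had a higher value with IFN alpha at 30-60 min (5.12 against 4.42) and ended at 6.27 and 7.15; its IFN gamma minus IFN alpha differences of -0.70 and 0.88 in those windows did not pass. Parp14 matched the order at 30-60 min (5.38 against 2.52) but not the late lead of IFN gamma (6.40 against 5.92). Of the 13 genes on either list, 9 had a promoter in the RefSeq table, of which 8 held GAAAC, 4 the ISRE core and 1 each GAS form within 250 bases. These include the promoters of Gbp3, with 2 ISRE core matches, and of Gbp7, with 1 such match and 2 GAS matches. Over all promoter windows 39.7% held GAAAC, 2.98% the ISRE core, 7.02% the 3-base and 5.85% the 4-base GAS. Those shares count single windows. Gbp3 and Rnf114 have 2 promoters each and counted if either held a match, so the shares are not a like baseline.

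**Figure D4:**
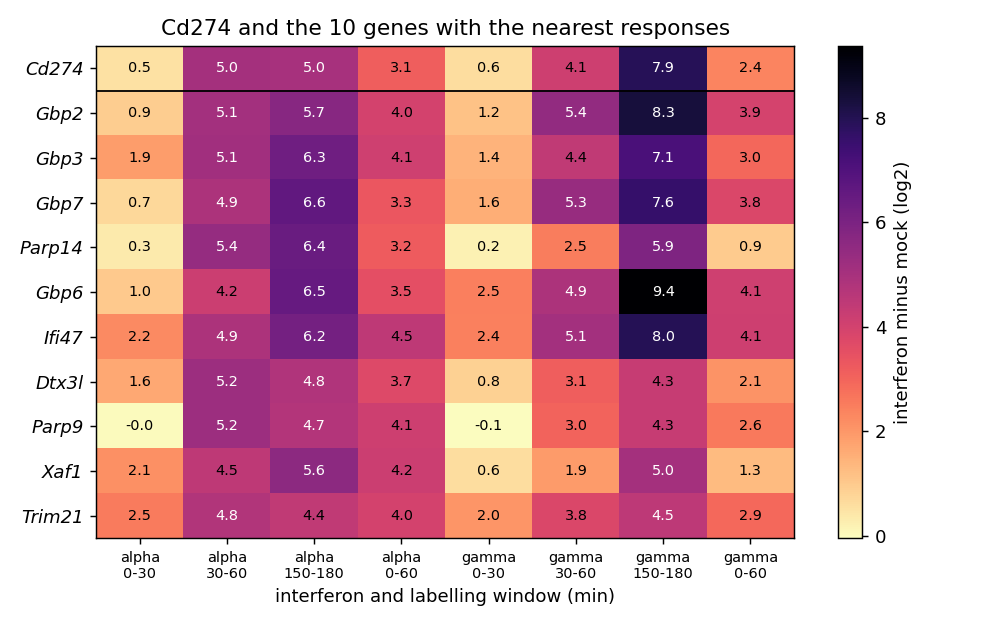
Interferon minus mock differences (log2) of Cd274 and the 10 genes with the smallest distance to it over the 8 comparisons, for IFN alpha and IFN gamma by window. Cd274 and Gbp2 run close together (distance 0.87), with low values at 0-30 min and the highest with IFN gamma at 150-180 min (7.94 and 8.34).

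Genes beside Cd274 had small differences or stayed under the filter. Of the 5 genes on each side of Cd274 that are on the array, in the GRCm38.p6 gene order, 5 of 10 passed the filter. Plgrkt, the nearest gene on one side, was higher at 150-180 min with IFN alpha (0.69 ± 0.19, adjusted p = 0.0416 in limma) and with IFN gamma (0.72 ± 0.19, adjusted p = 0.0145), where Cd274 rose by 4.98 and 7.94. Ermp1 was lower with IFN gamma at 30-60 min (-0.64 ± 0.17, adjusted p = 0.0123). Jak2, Rcl1 and Ric1 did not pass in any of the 8 comparisons with mock. Pdcd1lg2 on the other side, Insl6, Rln1, A930007I19Rik and Mlana stayed under the filter, with highest values from 2.16 (Mlana) to 2.93 (Rln1).

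**Figure D5:**
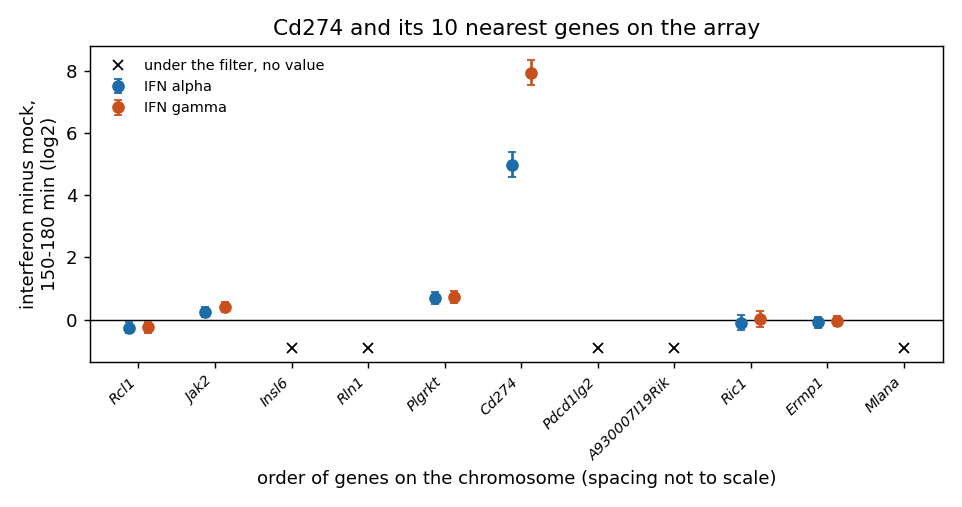
Interferon minus mock differences (log2) at 150-180 min for Cd274 and the 5 genes on each side by gene order; crosses mark genes under the filter, which have no value. Cd274 stands at 4.98 (IFN alpha) and 7.94 (IFN gamma), and the highest neighbour is Plgrkt at 0.69 and 0.72.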

How the data were processed

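The deposited table holds GCRMA log2 values, made by the authors per the submitters' processing notes; the version and other settings are not given in the sources used here. GCRMA corrects background and scales arrays to one another, so a value is relative to the other labelled RNA of its array. Values were used without further scaling. Symbols came from the platform annotation (34945 probe sets with 1 symbol, 932 with several, 9160 with none, 64 controls left out).

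A probe set was kept with log2 over 4 in at least 3 arrays, 1 per gene by highest mean (9549 genes). Means of 12 groups were fitted with limma 3.58.1 (R 4.3.3; lmFit, eBayes with an intensity trend, 24 residual degrees of freedom), giving 21 two-sided comparisons, each adjusted by Benjamini-Hochberg over all genes. The script was tested on simulated data. The members, lists, likeness rule and tests were chosen with earlier results of these data known. Named were Cd274, a panel of interferon receptors, Jak2, Irf1 and Pdcd1lg2, at most 4 members of each list (called, largest difference), the 10 nearest genes by 2 measures and 5 genes on each side; other names were added after their values were seen, as context. Same-numbered arrays deviated together (r over 0.1) in 9 of 9 pairs at 0-30, 30-60 and 0-60 min and in 7 of 9 at 150-180 min (lowest -0.29), so the numbers met the rule for pairs in the first 3 windows only; the main fit has no block, and the block within windows, an alternative, was fitted in all 4. Alternatives were other filters, scalings, probe sets, arrays, weights, a replicate block and each array left out. Promoters are RefSeq's, GRCm38.p6.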

Additional observations from a re-analysis of the deposited data

Results flagged for a closer look

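Between labelling windows, 4 responses of Cd274 differed by a test of the difference itself (limma, adjusted over 9549 genes). The IFN alpha response was larger at 30-60 than at 0-30 min by 4.53 (adjusted p = 1.66e-06). The IFN gamma response was larger at 30-60 than at 0-30 min by 3.54 (adjusted p = 0.000139), and larger again at 150-180 than at 30-60 min by 3.82 (adjusted p = 2.73e-05). The IFN gamma minus IFN alpha difference moved by 3.89 from 30-60 to 150-180 min, from -0.93 to 2.96 (adjusted p = 3.15e-05). For the first 3 of these, all 3 interferon arrays of the later window lay above those of the earlier one. Groups of 3 arrays were not tested for outlying samples.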

How the results depend on the processing

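For Cd274, the rises over mock at 30-60 and 150-180 min, the IFN gamma lead at 150-180 min and the 4 called changes between windows kept their direction and call under all alternatives run. Their lowest and highest log2 values were 3.23 and 5.23 (IFN alpha, 30-60 min), 2.40 and 4.20 (IFN gamma, 30-60 min), 3.27 and 5.11 (IFN alpha, 150-180 min), 6.13 and 8.13 (IFN gamma, 150-180 min) and 2.74 and 3.16 (IFN gamma minus IFN alpha, 150-180 min). The change of the IFN gamma minus IFN alpha difference from 30-60 to 150-180 min ranged from 3.67 to 4.23 and ranked 1 or 2 of all genes. Fitted on each window's own arrays, the 0-60 min rises of 3.13 and 2.37 lost the call (adjusted p = 0.0543 and 0.129), and the 30-60 min difference of -0.93 gained it (0.0444). Array weights, whose estimation did not converge, gave calls at -1.33 for that difference and -1.54 for its change from 0-30 min. Setting values under log2 4 to 4 left the 0-60 min IFN gamma rise at 1.12 (adjusted p = 0.0657). The uncalled change of the IFN alpha response from 30-60 to 150-180 min turned to 0.039 after adding 16 to linear values and to 0.085 with that floor. Beyond the fits' construction, the cause of these moves was not tested.

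With 1 array left out, the 0-60 min rise with IFN alpha ran from 2.31 to 3.77, and uncalled values crossed 0: IFN gamma minus IFN alpha at 0-30 min ran from -0.17 to 0.34, at 0-60 min from -1.40 to 0.062, the late IFN alpha change from -0.20 to 0.11 and mock 150-180 minus 30-60 min from -0.0094 to 0.24. The replicate block changed no Cd274 call, whether additive (adjusted p = 1.15e-15 for IFN gamma at 150-180 min) or within windows (1.2e-15; 0.0604 for IFN gamma minus IFN alpha at 30-60 min). Within windows it moved the genes called at 30-60 min from 247 to 508 for IFN alpha and from 562 to 1161 for IFN gamma, so the shares of genes called depend on it. Over the settings other than arrays left out, the genes called for IFN gamma against mock at 150-180 min ran from 475 (filter at log2 6) to 3881 (array weights), and over 0-60 min from 120 (those arrays alone) to 1949 (block within windows), against 564 and 643. Genes named from the lists were checked only in the comparison of their largest called difference. The alternatives there were scalings, no intensity trend, array weights and replicate blocks. Of these 162 values 161 kept their call, which the choice of the largest difference favours. Other values of these genes were not checked in this way. Signal over background limits the mock levels, all under the filter, and the 0-30 min window.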
